A study of Mus musculus with 28 samples.

Results

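Voltage-gated and pacemaker ion channel genes were read in mouse heart as all genes whose annotated symbol starts with Kcn, Hcn or Cacn, or has the form Scn, a number, and a or b. The rule found 121 of the 18193 genes named on the array, of which 84 were potassium, 24 calcium, 11 sodium and 2 Hcn (pacemaker) channel genes. A gene with several probe sets was read from the one whose mean signal was highest. The symbols include accessory subunits, and 3 of the 121 are RNA genes that encode no channel subunit (Kcnq1ot1, Kcnmb4os1 and Kcnmb4os2). The symbols alone chose the genes, and no measured value entered the rule.

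Total RNA from frozen heart tissue was hybridised to 28 arrays, 7 in each of 4 groups. The groups were untreated controls, controls given WY14643, untreated animals of the del337TR strain, and del337TR animals given WY14643. WY14643 is a synthetic activator of PPARalpha, a nuclear receptor that turns up fatty acid oxidation. In del337TR animals a thyroid hormone receptor is altered by a deletion, and the strain serves as a model of resistance to thyroid hormone. The labels name neither the receptor gene, the background strain, the age, the dose nor the duration of treatment, and the series' design calls the animals of each group individuals. Precision was limited by having 7 arrays in a group.

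Ion channels set the shape and timing of the cardiac action potential. Sodium channels carry the upstroke, L-type calcium channels carry the plateau and start contraction, and several kinds of potassium channel repolarise the cell and hold its resting potential. Hcn channels open on hyperpolarisation and carry the inward current that paces the sinoatrial node. Thyroid hormone is known to change heart rate and repolarisation in rodents and to alter transcripts of some of these channels, among them Hcn2, Kcna5 and Kcnd2.

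The promoters of Hcn2, Kcnd2 and Kcna5 are shown first, as thyroid hormone is known to alter these transcripts and nuclear receptors, those for thyroid hormone and PPARalpha included, recognise copies of the half-site AGGTCA. Each sequence is the 250 bases before the RefSeq start of the gene (mouse build GRCm38.p6), read 5′ to 3′ on the gene's strand, and capitals mark AGGTCA or its reverse complement TGACCT. Hcn2, a pacemaker channel subunit, lies at chr10:79716384-79716633 on the + strand. Kcnd2, the pore of the fast transient outward potassium current, lies at chr6:21215096-21215345 on the + strand. Kcna5, the pore of an ultrarapid delayed rectifier, lies at chr6:126535556-126535805 on the - strand.
Hcn2: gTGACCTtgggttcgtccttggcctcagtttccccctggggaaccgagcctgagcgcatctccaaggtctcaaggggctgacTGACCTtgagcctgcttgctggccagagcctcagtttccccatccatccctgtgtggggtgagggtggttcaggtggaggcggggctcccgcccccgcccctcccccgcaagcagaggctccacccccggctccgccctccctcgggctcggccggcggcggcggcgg
Kcnd2: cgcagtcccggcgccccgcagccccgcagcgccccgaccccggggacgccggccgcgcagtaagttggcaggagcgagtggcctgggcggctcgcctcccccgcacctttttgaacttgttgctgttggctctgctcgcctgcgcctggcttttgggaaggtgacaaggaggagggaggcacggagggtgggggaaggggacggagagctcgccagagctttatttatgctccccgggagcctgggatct
Kcna5: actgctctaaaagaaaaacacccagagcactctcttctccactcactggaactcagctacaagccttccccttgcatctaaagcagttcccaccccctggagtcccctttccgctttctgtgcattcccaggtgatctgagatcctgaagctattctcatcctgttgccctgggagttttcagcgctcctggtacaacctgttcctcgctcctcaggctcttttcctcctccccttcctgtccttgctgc

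The Hcn2 window held 2 copies of TGACCT, and the Kcnd2 and Kcna5 windows held neither the half-site nor its complement. The half-site on either strand was in 14% of 32851 RefSeq promoters of the same length and in 7.09% of 127 promoters of channel genes. The 39 promoters of channel genes above background came from 29 genes, since some genes had several promoters and others had none to read. Of these promoters 2 (5.13%) held the half-site, those of Hcn2 and Cacna1f. No channel promoter held a pair of half-sites in the same direction 1 or 4 bases apart, the DR1 and DR4 arrangements, which 11 and 5 of all promoters held. These matches describe letters within 250 bases and do not show binding.

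The arrays were scaled alike, with median signals from 60 to 77.8. All 8 markers of cardiac muscle were above the background defined below, and none of 8 skeletal muscle markers was. Atrial tissue varied widely: the signal of Myl4, which encodes a myosin light chain of the atria, lay between 106.9 and 14212.5. The summed signal of 6 atrial markers ran from 9701.8 to 35702.3 in untreated controls, from 3776.2 to 32408 in treated controls, from 12930 to 51936.3 in untreated del337TR and from 9464.1 to 54402.9 in treated del337TR. Of 9 measured markers of neurons and the cardiac ganglion, cells that also express many channels, 4 were above background, with sums from 803.3 to 1710.2 over all arrays. In 5 arrays Myh7, the slow myosin heavy chain, had signals of 3102.7 to 6007, against 14554 to 24980.9 in the other 23. These were replicate 7 of the untreated controls and replicates 1, 4, 6 and 7 of the treated controls. None of the 14 del337TR arrays was among them. Results that rest on these arrays are therefore given with and without them unless said otherwise, an alternative chosen after the data were seen. In tissue of mixed cells, fewer cells of a type and less RNA per cell cannot be told apart.

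Of the 121 genes, 39 had a signal above background. Background was the 95th percentile of 74 sensory receptor genes, which the heart is not known to express at large, and it lay at a signal of about 100 (mean log2 signal 6.64). Of the Hcn genes 1 of 2 passed. Among the larger classes calcium channel genes passed most often, with 11 of 24 (45.8%), followed by 25 of 84 potassium (29.8%) and 2 of 11 sodium (18.2%). The share of all 121 genes was 32.2%. Over the array 18028 of the 45037 probe sets tested were above background. Each channel gene was read from its highest probe set, so the shares of genes and of probe sets are not directly comparable. Signals of different probe sets depend on their sequence and do not rank the genes by abundance. The gene just inside the limit was Cacng4, with a mean log2 signal of 6.69, and just outside was Scn2b, at 6.61, so membership near the limit is a matter of convention.

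**Figure D1:**
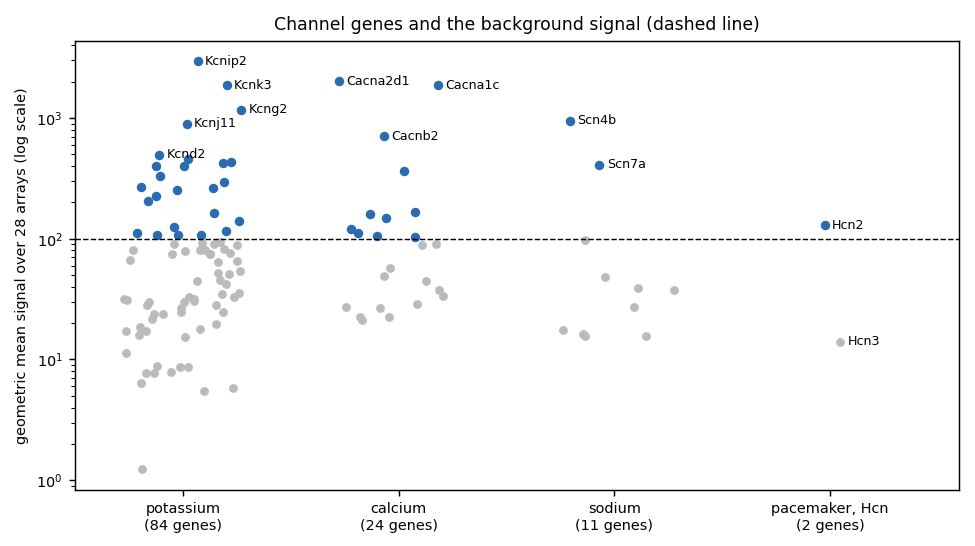
Geometric mean signal over the 28 arrays (log scale) of each channel gene, 1 point per gene, by class, with the background signal of the sensory receptor genes as a dashed line. The 39 genes in blue lie above the line, and Hcn3, most sodium and most potassium channel genes lie below it.

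A list of 32 channel genes known from the heart was set against this limit. Of these 27 were measured by a probe set with 1 symbol, and 21 of the 27 were above background. The others were not analysed here. Measured but not above background were Scn10a, the T-type calcium channel genes Cacna1g and Cacna1h, Kcna4 of the slow transient outward current, Kcne1, the partner of Kcnq1, and Kcnj2, a main inward rectifier. Kcnj2 had 1 probe set, with signals from 5.6 to 68.9, and a signal below this limit does not show that the transcript is absent.

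Among calcium channel genes, Cacna1c encodes the pore of the cardiac L-type channel. Its signals ran from 1388.7 to 2319.5 over the 28 arrays, with group means of 1998 ± 225 (SD, n = 7) in untreated controls, 1837 ± 309 in treated controls, 1907 ± 196 in untreated del337TR and 1809 ± 132 in treated del337TR. The 4 groups overlapped along nearly their whole range. Its partners Cacna2d1, an alpha2delta subunit that brings the channel to the membrane, and Cacnb2, the main cardiac beta subunit, ran from 1382 to 2654.8 and from 384.1 to 1299.2. Cacna1d, the L-type pore known from the atria and the sinoatrial node, had signals from 63.4 to 153.7. The other calcium channel genes above background were Cacna2d2, Cacna2d4, Cacnb1, Cacng4, Cacng7, and Cacna1f and Cacna1s, which are known best from the retina and skeletal muscle.

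The sodium channel genes above background were Scn4b, a beta subunit that modulates the pore, and Scn7a, an atypical alpha subunit. Scn4b had medians of 1034.2, 1143.7, 919.4 and 882.1 in untreated controls, treated controls, untreated del337TR and treated del337TR. Its signals ran from 663.4 to 1377.9, and every group overlapped every other. Scn7a ran from 279.6 to 703.1.

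Hcn2 was the pacemaker channel gene above background, while Hcn3 had signals from 5 to 34.7. In untreated controls Hcn2 had a lowest, median and highest signal of 104.6, 132.8 and 245.5, and in treated controls of 103.3, 161 and 259.3. Untreated del337TR arrays had 86.3, 106.5 and 134.8, and treated del337TR arrays 61.4, 118.1 and 148.3. The highest signals therefore lay in controls, and the lower part of each control group overlapped the del337TR groups.

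The transient outward current of the mouse heart is carried by Kcnd2 and Kcnd3 pores with the subunit Kcnip2. Kcnip2 varied least of all 39 genes, with a within-group SD of 0.13 on the log2 scale and signals from 2267 to 3433.1. Kcnd2 had a lowest, median and highest signal of 327.9, 415.7 and 1123.3 in untreated controls and of 392.4, 795 and 1091.3 in treated controls. In untreated del337TR these were 333.2, 453.6 and 564.6, and in treated del337TR 269.1, 427.4 and 529.4. Signals above 571.1 thus occurred in controls only, in 1 untreated and 4 treated arrays. Kcnd3 ran from 172.9 to 349.7 with no group apart from the others.

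Of the delayed rectifiers, Kcna5 was the most variable potassium channel gene above background (within-group SD 0.77). Its lowest, median and highest signals were 162.3, 598.4 and 631.7 in untreated controls and 183.5, 283.6 and 658 in treated controls. They were 209.8, 345 and 767.6 in untreated del337TR and 102.4, 172.8 and 589.3 in treated del337TR. High and low arrays occurred in every group, and the 3 lowest of all 28 signals were of treated del337TR. Kcnq1, the pore of the slow delayed rectifier, ran from 291.9 to 630.8 and Kcnh2, the pore of the rapid delayed rectifier, from 313.3 to 688.5. The silent subunit Kcnv2, which acts only together with other pores, ran from 105.2 to 335, and Kcng2, another silent subunit, from 969.8 to 1566.6. Kcna7, a shaker-type pore known from heart and skeletal muscle, ran from 351.1 to 603.6, and Kcnc1, a fast delayed rectifier known best from neurons, from 102.2 to 260.4.

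Inward rectifiers hold the resting potential and couple it to vagal tone and metabolism. Kcnj3 and Kcnj5, which together form the acetylcholine-gated channel of the atria, ran from 205.4 to 583.7 and from 276.8 to 610.5. Kcnj11, the pore of the ATP-sensitive channel of cardiac muscle, ran from 611.1 to 1258.7. Kcnj8, the ATP-sensitive pore known from vascular smooth muscle, ran from 138.2 to 615.4, and Kcnj12, a second strong inward rectifier, from 78 to 160.6. Among the leak channels of the Kcnk family, Kcnk3 ran from 1332.8 to 2433.1, Kcnk6 from 157.7 to 337.9 and Kcnk2, which opens on stretch, from 71.8 to 174.5. Kcnn2, a calcium-activated channel, ran from 97 to 191.5.

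**Figure D2:**
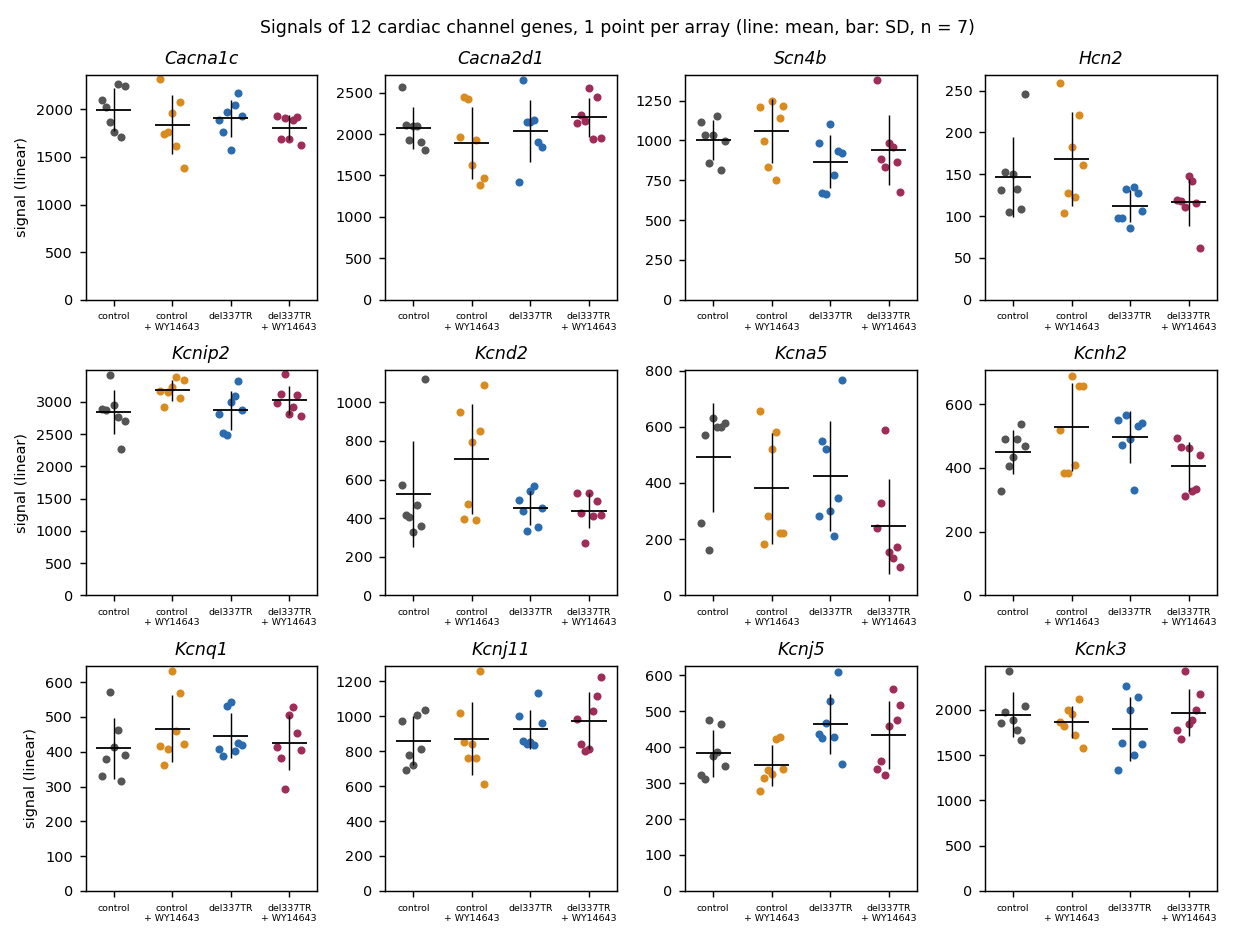
Linear signals of 12 channel genes, 1 point per array, in the 4 groups (line: mean, bar: SD, n = 7). The groups overlap for every gene drawn. In Kcnd2 and Hcn2 the high points are control arrays only, and in Kcna5 high and low points occur in each group.

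The strain comparison without treatment asked which channel transcripts differ between del337TR and control hearts. No channel gene passed limma's test at a Benjamini-Hochberg adjusted p under 0.05, against 0.00222% of 45037 probe sets called. At an unadjusted p under 0.05 there were 7 channel genes, beside 4.01% of all probe sets. Of these 2 were higher in del337TR (1.66% of all) and 5 lower (2.35%). Only 1 of the 7, Kcnc1, was above background, where 3.13% of probe sets had such a p. Kcnc1 had a lowest, median and highest signal of 165.7, 179.1 and 260.4 in untreated controls and of 121.2, 145 and 235.3 in untreated del337TR, a log2 difference of -0.34 ± 0.15 (SE, limma adjusted p = 0.999). Hcn2 stood at -0.35 ± 0.21, Cacna2d2 at 0.49 ± 0.30, Kcnq1 at 0.14 ± 0.15 and Kcnj5 at 0.28 ± 0.14, each with a limma adjusted p of 0.999. Without the 5 arrays of low Myh7 Hcn2 stood at -0.22. Kcnj5 had a second probe set above background, which stood at -0.14, so the pair did not give 1 direction. Of the 12 genes with several probe sets above background, 7 had probe sets of opposite sign in this comparison. With all probe sets of a gene averaged, those below background included, Cacna2d2 stood at 0.17 and Kcnj5 at 0.066. Among the 39 genes above background 20 were higher in del337TR, beside 47.1% of probe sets above background. For no channel gene did the 2 groups lie apart without overlap, here or in the other pairwise comparisons. The share of all probe sets whose groups lay apart was 0.0688% here, 0.0866% and 0.0733% for WY14643 in controls and in del337TR, and 0.107% for strain under WY14643.

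The comparison of treated with untreated controls asked what WY14643 does with intact receptors. No channel gene passed limma's test, and 0% of all probe sets did. At an unadjusted p under 0.05 were 8 channel genes, beside 6.75% of all probe sets. Of these 1 was higher with treatment (2.39% of all) and 7 lower (4.36%), and 2 were above background, beside 7.69%. Kcnc1 stood at -0.46 ± 0.15 (SE, limma adjusted p = 0.698), with treated controls at 102.2, 142.4 and 183 as lowest, median and highest. Kcnv2 stood at 0.42 ± 0.18 (limma adjusted p = 0.727), Kcnip2 at 0.17 ± 0.08 and Kcnk2 at -0.34 ± 0.17 (limma adjusted p = 0.743 for both). Without the 5 arrays of low Myh7 these were -0.18 for Kcnc1, 0.12 for Kcnv2, 0.15 for Kcnip2 and -0.19 for Kcnk2. With its probe sets averaged Kcnip2 stood at 0.012. Markers of neurons and the cardiac ganglion also stood low in treated controls. All 9 were lower, with a median of -0.31 and sums from 803.3 to 1186.9 against 958.2 to 1383.2 in untreated controls, while the 4 above background had a median of -0.089. None of them was at 0, and their part in the values of Kcnc1, a channel known from neurons, was not tested. Of the 39 genes 19 were higher with WY14643, beside 45.3% of probe sets above background.

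The comparison of treated with untreated del337TR asked what WY14643 does in the mutant strain. No channel gene passed limma's test, and 0% of all probe sets did. At an unadjusted p under 0.05 were 8 channel genes, beside 5.78% of all probe sets. Of these 5 were higher with treatment (2.95% of all) and 3 lower (2.83%), and 3 were above background, beside 5.7%. Of the 39 genes 24 were higher, beside 49.8%. Kcnk6, which encodes a weak inward-rectifying leak channel, had a lowest, median and highest signal of 203.2, 242.9 and 337.9 without and 157.7, 173.9 and 271.8 with WY14643. Its log2 difference was -0.41 ± 0.15 (SE, limma adjusted p = 0.783). Kcna5 stood at -0.90 ± 0.40 (limma adjusted p = 0.844), the largest difference in size among the 39 genes in this comparison. Cacng4, a gamma subunit, stood at 0.33 ± 0.13 (limma adjusted p = 0.830), and at 0.15 with its probe sets averaged. In controls the same treatment gave -0.39 ± 0.40 for Kcna5, and averaged over both strains Kcna5 stood at -0.65 ± 0.28 (limma adjusted p = 0.633). The average was -0.39 ± 0.17 for Kcnj8, -0.24 ± 0.10 for Kcnk6 (limma adjusted p = 0.621 for both) and 0.13 ± 0.06 for Kcnip2 (limma adjusted p = 0.662). All 6 smooth muscle markers stood lower in that average too, with a median of -0.13, and their part in the values of Kcnj8, known from that tissue, was not tested. The average left 0 channel genes past the adjusted threshold, as 0% of all probe sets, and 10 at an unadjusted p under 0.05, beside 7.5%. These were 3 higher (2.96% of all) and 7 lower (4.55%), with 4 above background, beside 8.94%.

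The strain comparison under WY14643 held the most channel genes at an unadjusted p under 0.05 of the 4 pairwise comparisons. There were 17, beside 8.86% of all probe sets. Of these 12 were higher in del337TR (5.25% of all) and 5 lower (3.61%), and 9 were above background, beside 12%. No channel gene passed limma's adjusted threshold, and 0% of all probe sets did. Above background the genes lower in del337TR were Kcnd2 (-0.61 ± 0.26, SE, limma adjusted p = 0.493), Hcn2 (-0.50 ± 0.21, adjusted p = 0.497), Kcnh2 (-0.37 ± 0.16, adjusted p = 0.518) and Kcnv2. Among those higher was Kcnc1 (0.35 ± 0.15, adjusted p = 0.515), with Kcnj5, Kcnk2, Kcnip1 and Cacna1f. The directions of Kcnv2, Kcnj5, Kcnk2, Kcnip1 and Cacna1f are given with all arrays only. Without the 5 arrays of low Myh7, which leaves 3 treated controls, Kcnd2 stood at 0.035, Hcn2 at -0.054, Kcnh2 at 0.020 and Kcnc1 at 0.036. The count of channel genes at an unadjusted p under 0.05 was then 7, beside 5.71% of all probe sets. In that fit Kcnmb4os2, an antisense RNA gene below background, passed the adjusted threshold (3.30 ± 0.50, limma adjusted p = 0.0381), as 1 of 5 probe sets. Its signals ran from 1.9 to 10.3 in the 3 treated controls left and from 23.7 to 51.4 in treated del337TR. The size of the difference thus rests on signals near the lower end of the arrays. The treated controls left out, replicates 1, 4, 6 and 7, had 61.6, 29.6, 43.7 and 38.6. With them the groups overlap, so this call rests on leaving them out.

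By class, 10 of the 11 calcium channel genes above background were higher in del337TR than in control under WY14643, with a median of 0.23, beside 50.2% of all probe sets above background. Without treatment it was 5 of 11, with a median of -0.04. Of the 25 potassium channel genes 13 were higher under WY14643 and 14 without it. These class counts include the 5 arrays of low Myh7 and are given with them only. The calcium channel genes share the same arrays and only 1 of the 10, Cacna1f, had an unadjusted p under 0.05, so their common sign is a description. All 8 fibroblast markers were higher in the same comparison, with a median of 0.22. Their sums ran from 19593.5 to 24206 in treated del337TR against 17195 to 22827.2 in treated controls. All 6 atrial markers (median 0.90) and 8 of 9 neuron markers (median 0.17) were higher too, while 5 of 6 smooth muscle markers were lower. None of these markers was at 0, and their part in the calcium channel values was not tested.

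**Figure D3:**
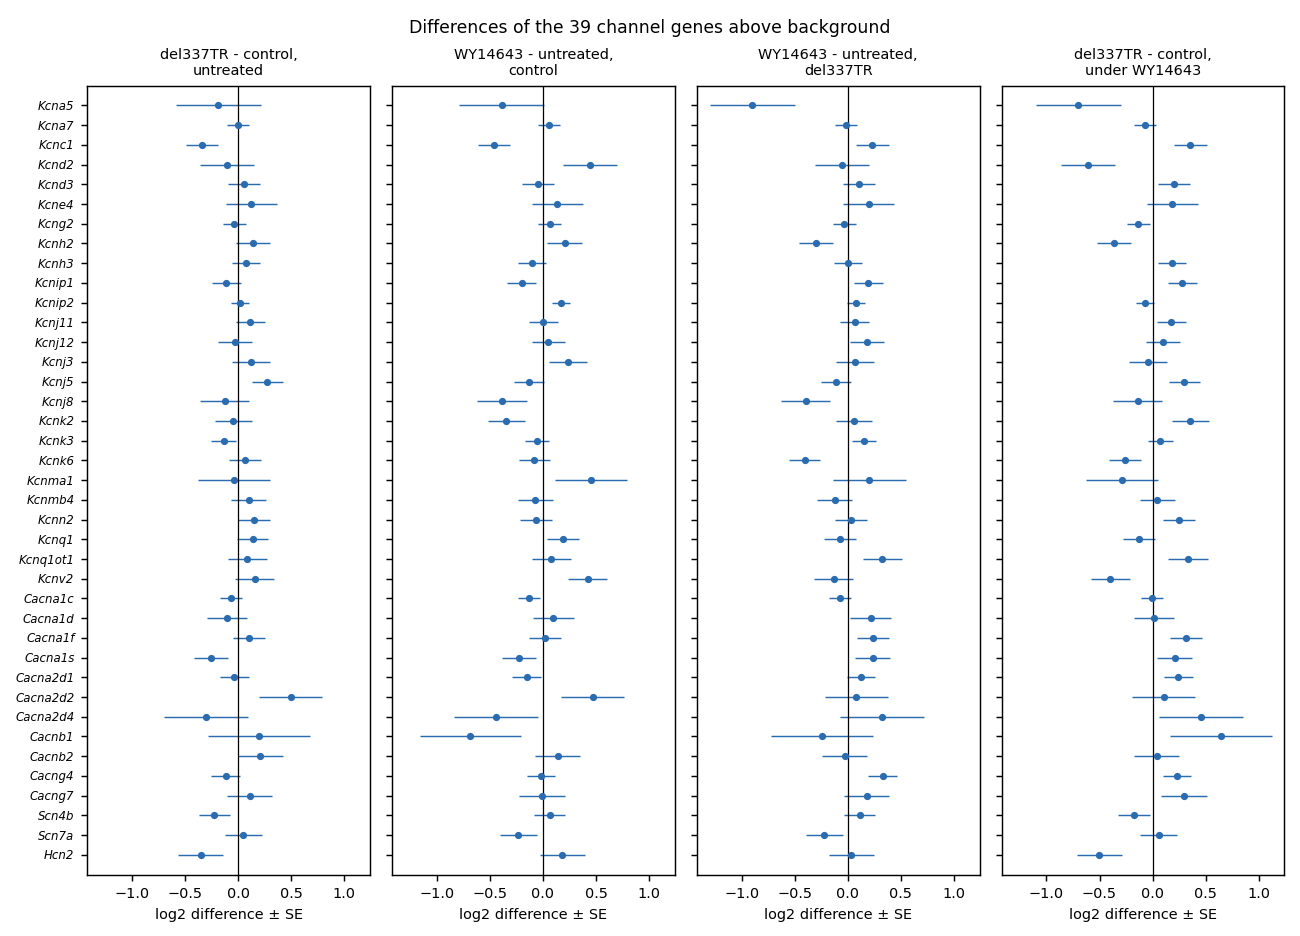
Log2 differences ± SE of the 39 channel genes above background in the 4 pairwise comparisons, del337TR minus control and WY14643 minus untreated. Most intervals cross or lie close to 0, and Kcnd2, Hcn2 and Kcnh2 each have their lowest value of the 4 in the comparison of strains under WY14643, while Hcn2 is below 0 without treatment too (-0.35) and Kcnh2 for WY14643 in del337TR (-0.30).

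The difference between the WY14643 effects of both strains was tested as an interaction. No channel gene passed, and 0% of all probe sets did. Channel genes at an unadjusted p under 0.05 numbered 9, beside 4.9% of all probe sets. Of these 7 stood above 0 (3.26% of all) and 2 below (1.65%), and 4 were above background, beside 4.19%. Kcnc1 stood at 0.69 ± 0.22 (SE, limma adjusted p = 0.956), since its signals were lower with WY14643 in controls and higher with it in del337TR. Kcnv2 stood at -0.55 ± 0.26, Kcnh2 at -0.50 ± 0.23 and Kcnip1 at 0.39 ± 0.19, each with an adjusted p of 0.956. Without the 5 arrays of low Myh7 they stood at 0.41, -0.25, -0.13 and 0.40 in the order Kcnc1, Kcnv2, Kcnh2 and Kcnip1.

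Averaged over both treatments, del337TR hearts stood below controls for Hcn2 by -0.43 ± 0.15 and above for Kcnj5 by 0.29 ± 0.10 (SE, limma adjusted p = 0.575 for both). Kcnd2 stood at -0.36 ± 0.18 (adjusted p = 0.665) and Cacna1f at 0.21 ± 0.11 (adjusted p = 0.668). No channel gene passed the adjusted threshold, and 0% of all probe sets did. Unadjusted, 7 channel genes were below 0.05, beside 7.66% of all probe sets. Of these 5 were higher (4.09% of all) and 2 lower (3.57%), and the 2 above background, Hcn2 and Kcnj5, stand beside 10.4%. Without the 5 arrays of low Myh7 Hcn2 stood at -0.14, Kcnd2 at 0.065, Kcnj5 at 0.26 and Cacna1f at 0.11. The second Kcnj5 probe set stood at -0.02, and with its probe sets averaged Kcnj5 stood at 0.13. Probe sets disagreed in sign for 6 of the 12 genes with several above background. All 6 atrial markers were higher in this average, with a median of 1.05, and with the atrial score described below as a covariate Kcnj5 stood at 0.27 and Hcn2 at -0.39.

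The 5 arrays of low Myh7 are those that set Kcnd2 and Hcn2 apart. Kcnd2 had 1123.3 in replicate 7 of the untreated controls and 949.9, 795, 851.4 and 1091.3 in replicates 1, 4, 6 and 7 of the treated controls, against 269.1 to 571.1 in the other 23 arrays. These 5 arrays had the 5 highest signals on each of the 3 Kcnd2 probe sets above background. Hcn2 had 245.5, 259.3, 182, 220.4 and 161 in the same order, against 61.4 to 153.3 in the other arrays. For both genes these arrays lie above all others. Kcnv2 had 228.2 to 335 in these 5 arrays against 105.2 to 268.7, and Kcnh2 had 469.6 to 688.5 against 313.3 to 564.8. Kcnc1 lay on the low side, at 102.2 to 165.7 against 121.2 to 260.4. Scn4b, at 998.4 to 1250.1 against 663.4 to 1377.9, was not apart.

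**Figure D4:**
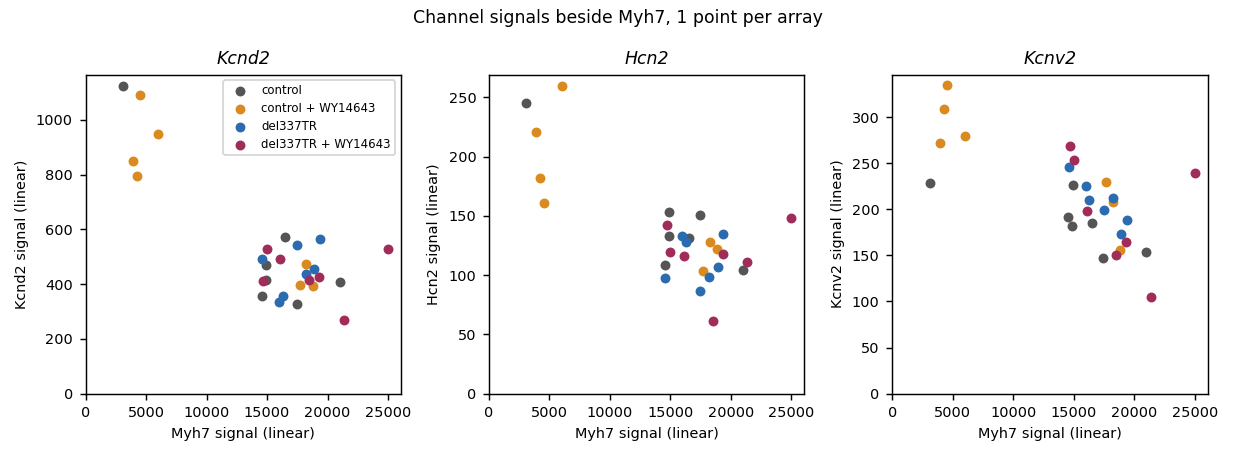
Signals of Kcnd2, Hcn2 and Kcnv2 against the signal of Myh7, 1 point per array, coloured by group. In Kcnd2 and Hcn2 the 5 arrays with Myh7 below 10000, all of them controls, lie above the 23 others, and among those 23 no trend is visible for these 2 genes. For Kcnv2 the 5 arrays overlap the others, and within the 23 its r with Myh7 is -0.53.

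Thrsp, a gene known to be raised by thyroid hormone, had 1261.4 to 1970.1 in these 5 arrays and 427.9 to 902.9 in the others. RNA quality, read from the ratio of actin signals at the 3′ and 5′ ends, differed as well, at 1.32 to 1.82 against 1.09 to 1.37, and over all 28 arrays, with group means removed, the log2 of this ratio had an r of 0.62 with Kcnd2, beside 0.28 for the Gapdh ratio. The part of RNA quality in these channel values was not tested. Within the other 23 arrays no channel gene above background followed Myh7 after adjustment over the 39 relations. There, with group means removed, Kcnd2 had a Pearson r of -0.04 and a Spearman rho of -0.00 with Myh7, and Hcn2 had -0.03 and -0.05. Their Benjamini-Hochberg adjusted permutation p values for r were 0.911 and 0.936. Kcnv2 had an r of -0.53 and a rho of -0.64 (permutation p = 0.0460 and 0.00469, adjusted 0.435 and 0.0915), and an r of -0.79 without the 2 arrays farthest from the median of Myh7. No r with Myh7 was taken over all 28 arrays, since the arrays fall into separate clusters. The r of 0.62 of Kcnd2 with the actin ratio spans these clusters.

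Ppara, which encodes the receptor that WY14643 binds, varied within groups together with 3 channel genes. Ppara was picked as a reference after its values and those of other genes had been seen, and the adjusted p values below count only the 39 relations with Ppara. Its signals ran from 480.7 to 1475.8. On deviations from the group means of log2 signals over 28 arrays, Kcna5 had a Pearson r of 0.72 and a Spearman rho of 0.66 with Ppara (permutation p = 2e-05 and 0.00065, adjusted over 39 relations 0.00078 and 0.0127). Cacnb2 had -0.66 and -0.65 (permutation p = 4e-05 and 0.00013, adjusted 0.00078 and 0.00507). Kcnk6 had 0.62 and 0.57 (permutation p = 0.00108 and 0.00359, adjusted 0.0140 and 0.0467). Labels were permuted within groups, two-sided, with 100000 draws. These 3 relations were those of the 39 that passed an adjusted p of 0.05. Ppara was set against these 39 genes only. The share of all probe sets that follow Ppara as closely was not taken, so the relations are not shown to be particular to channels.

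The sign of each of the 3 relations was the same in every group. The 3 genes were picked by their r over the same arrays, so this common sign is a description and no further support. For Kcna5 r was 0.84 in untreated controls, 0.53 in treated controls, 0.75 in untreated and 0.84 in treated del337TR. For Cacnb2 it was -0.64, -0.77, -0.83 and -0.70, and for Kcnk6 0.65, 0.75, 0.31 and 0.66 in the same order. Without the 2 arrays farthest from the median of Ppara, r was 0.69, -0.64 and 0.57 for Kcna5, Cacnb2 and Kcnk6. The 3 probe sets of Ppara gave r of 0.64 to 0.81 with Kcna5, of -0.66 to -0.48 with Cacnb2 and of 0.55 to 0.69 with Kcnk6. Both Cacnb2 probe sets gave -0.66 and -0.69 with the Ppara probe set used. The actin ratio had an r of -0.06 with Kcna5, 0.08 with Cacnb2 and -0.11 with Kcnk6 on the same deviations, and the Gapdh 3′ to 5′ ratio 0.19, -0.44 and 0.26. The part of RNA quality in these relations was not tested. Among all 741 pairs of the 39 channel genes no pair passed adjustment, and the pair with the highest r was Kcna5 with Kcnk6 (r = 0.70, rho = 0.67, permutation p = 0.00019 for r, adjusted 0.0741).

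**Figure D5:**
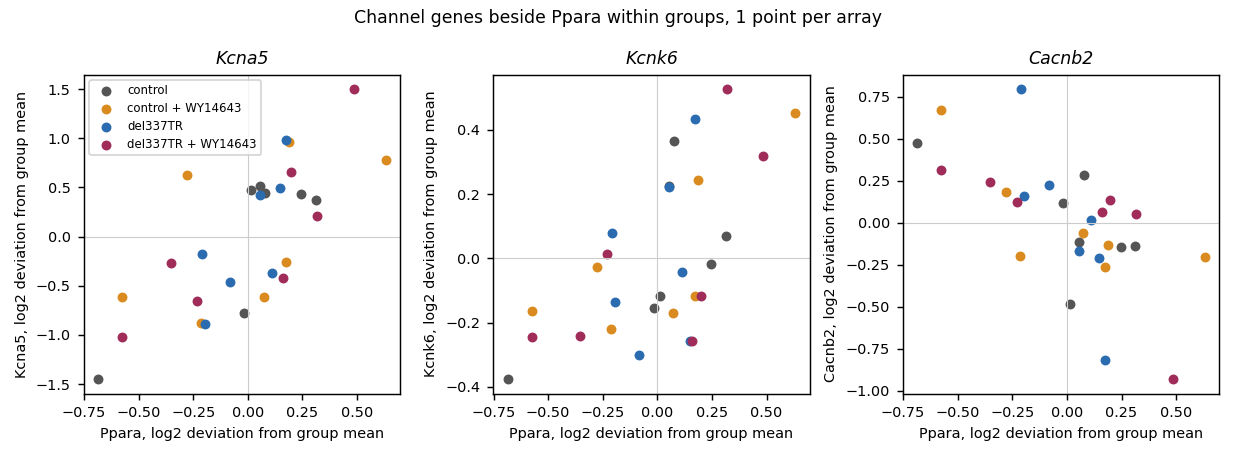
Log2 deviation from the group mean of Kcna5, Kcnk6 and Cacnb2 against that of Ppara, 1 point per array, coloured by group. Kcna5 and Kcnk6 rise with Ppara (r = 0.72 and 0.62) and Cacnb2 declines with it (r = -0.66) over the 28 arrays.

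Since several channels are known from the atria, the genes were also set against an atrial score, the mean log2 signal of Myl4, Myl7 and Sln, in a fit that held the group means. The score ran from 3.75 to 13.40. Over all probe sets 38 passed an adjusted p of 0.05 (0.0844%), and 1 of these was a channel gene. At an unadjusted p under 0.05 were 10 channel genes, beside 7.82% of all probe sets. Cacna2d2, an alpha2delta subunit, rose by 0.16 ± 0.03 log2 units per unit of score (SE, limma adjusted p = 0.0151). Its lowest, median and highest signals were 76.7, 112.5 and 239.9 in untreated controls, 108.5, 156.5 and 306.3 in treated controls, 82.2, 169.6 and 274.7 in untreated del337TR, and 107.3, 200.3 and 320.4 in treated del337TR. In treated controls, untreated del337TR and treated del337TR the array highest for Cacna2d2 was also the one highest for Myl4. In untreated controls replicate 6 was highest for Cacna2d2 and replicate 7 for Myl4. Myl4 is a gene of the score, so this is no separate support. Leaving out replicate 6 of untreated controls ended this call, with a slope of 0.15 (limma adjusted p = 0.0584), as did leaving out the 5 arrays of low Myh7, with a slope of 0.16 (limma adjusted p = 0.0924). Without the 4 arrays with a score below 6, an alternative chosen after the data were seen, the slope was 0.30 (limma adjusted p = 0.000178). Over all settings it ran from 0.14 to 0.30. Cacna1e and the T-type gene Cacna1g, both below background, had slopes of 0.24 ± 0.05 and 0.18 ± 0.04 (limma adjusted p = 0.0938 and 0.170). Kcnj3, known from the atria, stood at 0.04 per unit and Kcna5 at 0.10 per unit, neither past the threshold. The atrial markers had median log2 differences from controls of 1.30 in untreated del337TR and 0.90 under WY14643. With the score as a covariate the untreated strain difference of Cacna2d2 was 0.10 in place of 0.49. Cacna2d2 was singled out by its slope on this score in the same arrays, so this change is a description. The part of atrial tissue in the strain difference was not tested.

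Lists of channels by known role were counted in the same way. Of 6 channel genes known to be raised by thyroid hormone in heart, Hcn2, Kcna5, Kcnd2 and Kcnk2 were measured and above background. All 4 stood below 0 in untreated del337TR, with a median of -0.15 against -0.01 over all probe sets above background and none at an unadjusted p under 0.05. Under WY14643 3 were lower, with a median of -0.56, 2 of them (Hcn2 and Kcnd2) at an unadjusted p under 0.05, and 1 (Kcnk2) was higher at such a p. Without the 5 arrays of low Myh7 the untreated differences were 0.095 for Kcnd2, -0.22 for Hcn2 and -0.11 for Kcna5, so the common sign was not kept. The differences under WY14643 were then 0.035 for Kcnd2 and -0.054 for Hcn2, and those of Kcna5 and Kcnk2 are given with all arrays only. Of 3 channels known to be lowered by thyroid hormone, Kcna4, Kcne1 and Kcnq1, 1 was higher and 2 were lower in untreated del337TR, with none at such a p. The list of 17 measured transient outward and delayed rectifier genes had 9 higher and 8 lower in untreated del337TR, and that of 10 inward rectifier genes had 5 and 5. The list of 9 measured atrial or pacemaker channels had 6 higher and 3 lower, with a median of 0.12 and none at an unadjusted p under 0.05.

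Genes that work with these channels, such as connexins, pumps, anchoring proteins and conduction system factors, were read as a list of 46, of which 37 were measured. No member passed limma's adjusted threshold in any of the 7 comparisons. Rangrf, which brings the cardiac sodium channel to the membrane, stood at 0.37 ± 0.13 for WY14643 in controls and at -0.42 ± 0.13 for strain under WY14643. Irx3 and Irx5, transcription factors that pattern Kcnd2 and conduction genes across the ventricle wall, stood at -0.42 ± 0.13 and -0.44 ± 0.13 for WY14643 averaged over strains. Trpm4, a calcium-activated cation channel of the conduction system, stood at -0.44 ± 0.15 in untreated del337TR. Rangrf, Irx3, Irx5 and Trpm4 were picked by their small p values, and their differences are given with all arrays only, those of low Myh7 included. Members at an unadjusted p under 0.05 were 1 higher and 1 lower for WY14643 in controls, beside 6.75% of all probe sets. They were 3 and 2 for strain under WY14643 (8.86%) and 1 and 4 for WY14643 averaged over strains (7.5%). Strain without treatment had 0 and 1 (4.01%).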

How the data were processed

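The deposited table holds linear intensity values for 45101 probe sets on each array, between 0 and 26183.2. Per the submitters' processing notes RMA was used, but the values were not on a log scale and each array's mean, with 2% trimmed at both ends, was 250, so they were treated as scaled signals, floored at 0.1 (3 values at 0) and log2 transformed. The 64 array controls were left out. Of the 45037 probe sets tested, 34945 had 1 symbol in the platform annotation, 932 several and 9160 none. A model of the 4 group means was fitted to all 28 arrays in limma (version 3.58.1, R 4.3.3, two-sided, 24 residual degrees of freedom), with Benjamini-Hochberg adjustment over every probe set, and was tested on simulated data. The members and lists were chosen with earlier results of these data known. Genes were named where they passed the threshold, had one of the 4 smallest p values above background in a comparison, had probe sets that disagreed, or stood on the list of 32 heart channels, and partner genes by the 3 smallest p values. Others were named after their values were seen. No batch is given in the sources used here, and p values measure the spread between these individuals. Comparisons with a group in common are not independent. Promoters are from RefSeq (92 channel genes matched). Alternatives were log2 of the signal plus 16, a filter on low signals, other scalings, weights and variance settings, covariates from the data, the mean of a gene's probe sets, only the groups compared, a replicate block, and each array left out.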

Additional observations from a re-analysis of the deposited data

Results flagged for a closer look

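Within groups of 7, single arrays far from the rest were sought in the 29 genes of the report whose values were looked at this way, 116 groups of arrays in all, and 10 stood out by Dixon's criterion, where chance gives about 1 in 20. Cacna1e, a calcium channel pore below background, had 3 of them: 7.2 in replicate 3 of the untreated controls (next 47.3), 17.7 in replicate 3 of the treated controls (next 51.2) and 15.8 in replicate 4 of treated del337TR (next 56.4). These 3 arrays also had atrial scores of 4.92, 4.87 and 4.47, among the 4 lowest of the 28. In treated del337TR, replicate 3 was low for Kcnd2 at 269.1 (next 413.1) and for Cacnb2 at 384.1 (next 759.7). Replicate 7 of that group was low for Hcn2 at 61.4 (next 111.3) and high for Kcnj3 at 583.7 (next 327.9), beside the highest atrial score of all arrays, 13.40. In untreated del337TR, replicate 1 was high for Kcnc1 at 235.3 (next 159) and for Kcnip1 at 164.8 (next 111.8), and replicate 5 was low for Kcnh2 at 330.2 (next 472.2).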

How the results depend on the processing

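The number of channel genes past limma's adjusted threshold stayed at 0 in all 7 comparisons under every alternative run except 1: without the 5 arrays of low Myh7 (chosen after the data were seen) it was 1 for strain under WY14643. The count of channel genes following the atrial score, 1 as reported, was 0 with the replicate block and 0 without those 5 arrays, and ran from 0 to 2 with 1 array left out: it was 0 without replicate 6 of the untreated controls and 2 without replicate 1 of the untreated controls or replicate 3 of treated del337TR. Same-numbered arrays had mean correlations of residuals from -0.01 to 0.08, with single pairs from -0.21 to 0.29. No batch is given in the sources used here, and these correlations do not show whether the replicate number marks one. With the replicate block the channel genes at an unadjusted p under 0.05 numbered 8, 7, 6, 15 and 10 for strain untreated, WY14643 in controls, WY14643 in del337TR, strain under WY14643 and the interaction, and no call changed other than that of Cacna2d2. Over all settings these counts ran from 3 to 12, 5 to 16, 5 to 13, 7 to 19 and 6 to 15. Without the 5 arrays of low Myh7 the counts were 12, 8, 9, 7 and 8 in the same order. Beside them stood 4.08%, 4.7%, 6.11%, 5.71% and 4.97% of all probe sets. For the replicate block and the other alternatives the share over all probe sets is not given, so their counts have no such reference.

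Directions turned for differences near 0 and for those that rest on the 5 arrays. Without these 5 arrays strain under WY14643 was 0.035 for Kcnd2 and 0.020 for Kcnh2, the strain average of Kcnd2 was 0.065, its untreated strain difference was 0.095 (from -0.20 to 0.095 with 1 array left out, the highest without replicate 7 of the untreated controls), and WY14643 in controls was -0.13 for Hcn2, -0.17 for Kcnh2 and -0.22 for Scn4b, from 0.18, 0.20 and 0.06. For WY14643 in del337TR, Hcn2 (0.03 as reported) was -0.0039 with arrays centred on their medians, -0.032 and -0.022 without replicates 4 or 5 of the treated group and -0.026 without replicate 4 of the untreated one. Kcnd2 (-0.06 as reported) was 0.047 with the mean of its probe sets, 0.0012 without replicate 5 of untreated and 0.057 without replicate 3 of treated del337TR. The cause of these turns was not tested beyond the arrays left out. With the probe sets of Kcnj5 averaged its untreated strain difference was 0.066 in place of 0.28. Signals of genes near background limit what can be seen in 82 of the 121 genes.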
